A study of Mus musculus with 6 samples.

Results

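The regions described here are places in mouse brain DNA that were enriched for 5-hydroxymethylcytosine (5hmC) in both control and injured tissue, but over a shorter stretch after ischemic injury. They were chosen by the widths of the peaks in both lists, as pairs of 1 control-list and 1 injury-list peak on chromosomes 1 to 19 that overlapped each other by at least 1 bp and touched no other peak of the other list, with an injury-list width of at most 0.8 times the control-list width. There were 3347 such narrowed pairs among 12963 pairs matched 1 to 1 (25.8%, 95% interval 25.1 to 26.6%). Their peaks overlapped by a median of 1573 bp, but by as little as 3 bp. Some members are therefore peaks that barely meet, and not 1 place that was shorter. The study took brain tissue from 6 C57BL/6 mice, of which 3 had ischemic injury (I/R) and 3 were matched controls. All are of the same strain, and no age, sex, brain region or time after injury is given in the sources used here. For each group there was 1 list of enriched regions (peaks) on mouse build mm9, with a score for each peak; the lists held 20555 control-list and 53341 injury-list peaks on these chromosomes.

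TET enzymes make 5hmC by oxidising 5-methylcytosine, and the base is especially abundant in neurons, where it is known to lie along the bodies of active genes and at enhancers. The assay, hMe-Seal, attaches a modified sugar to 5hmC so that fragments carrying the base can be captured and sequenced. A peak marks a stretch over which captured fragments pile up, so its width tells how far along the DNA the enrichment was called, and not how much 5hmC each base carried. Ischemic injury follows from an interrupted blood supply, and I/R usually stands for ischemia and reperfusion. In whole tissue, a change in the mix of cells and a change within cells cannot be told apart.

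Because the widths chose the members, they and everything else measured in the same lists are given as a description, without a test. A single list stands for each group, so the spread between mice is unknown, and whether each mouse showed a given pair is not known. The number of reads behind each list is unknown, and peak width and score both depend on it. Intervals are exact binomial 95% intervals, cover counting error only and treat pairs as independent, which makes them too narrow for pairs that lie side by side.

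Pairs at the other end of the scale were nearly as frequent as narrowed ones. In 3161 pairs (24.4%, 23.6 to 25.1%), called widened here, the control-list peak was at most 0.8 times as wide as the injury-list peak, and 6455 pairs (49.8%, 48.9 to 50.7%) lay in between and are called stable. The median ratio over all 12963 pairs was 0.975. This balance depended on the peaks kept: narrowed and widened pairs were 18.8% and 30.4% with an injury list cut by score to the length of the control list, and 22.7% and 36.9% with peaks of a list within 1 kb merged. The narrowed pairs made up 16.3% of the control-list peaks and 6.27% of the injury-list peaks of these chromosomes. Their control-list peaks covered 10.5 Mb and their injury-list peaks 6.29 Mb, whereas the widened pairs went from 8.49 to 14.4 Mb and the stable pairs stood at 19.1 Mb in both lists. The widened pairs therefore were longer in the injury list by more bases (5.96 Mb) than the 4.20 Mb by which the narrowed pairs came short.

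**Figure D1:**
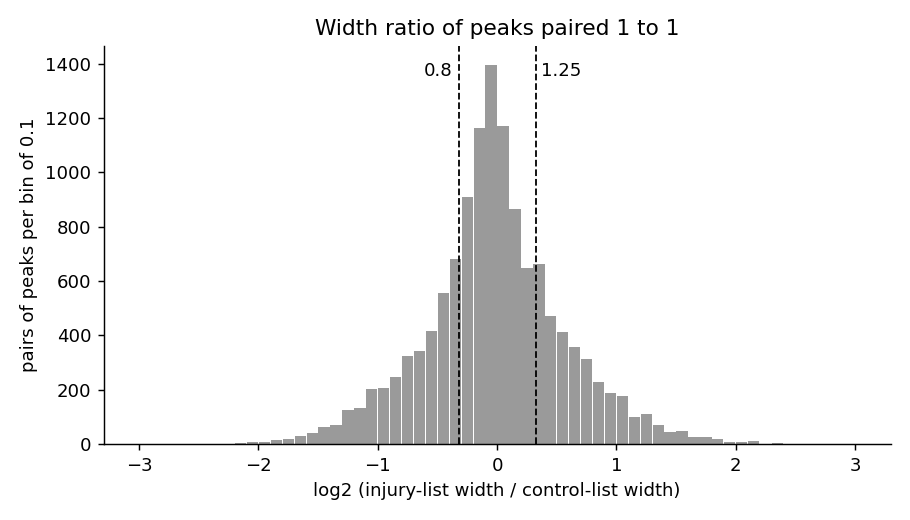
Number of 1-to-1 pairs of peaks (vertical axis) by the log2 ratio of injury-list to control-list width (horizontal axis, bins of 0.1), with dashed lines at the limits for narrowed and widened pairs. The 3347 narrowed pairs lie left of the first line, in a single slope that runs on from the stable pairs, with no separate hump.

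Within the narrowed pairs, the median width was 2896 bp in the control list (quartiles 2300.5 and 3746 bp) and 1665 bp in the injury list (1359.5 and 2174 bp). The stable pairs had medians of 2622 and 2590 bp. The median ratio of the narrowed pairs was 0.637, and 729 of them (21.8%, 20.4 to 23.2%) had an injury-list peak of no more than 0.5 times the control-list width. A ratio of 0.3 or less was rare, with 54 pairs. The injury-list peak was narrower by a median of 1082 bp (quartiles 686.5 and 1608 bp). In 473 pairs (14.1%) it was narrower by 2000 bp or more, and in 7 pairs by 5000 bp or more. Most members are thus moderate cases, and the pairs described next are the extremes of the set.

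The lowest ratio, 0.143, belonged to a pair on chromosome 11. Its control-list peak ran for 5913 bp (114384837 to 114390749, score 370.27) and its injury-list peak for 848 bp (114385222 to 114386069, score 56.96). The remaining stretch lay near the lower end of the control-list peak, with 385 bp uncovered before it and 4680 bp after it. On chromosome 15 a control-list peak of 7407 bp (98720673 to 98728079, score 94.39) met an injury-list peak of 1203 bp (98722820 to 98724022, score 81.9), a ratio of 0.162. The third pair, on chromosome 10, had the largest difference in bases of all members, 6863 bp. There the control-list peak measured 8306 bp (75386332 to 75394637, score 283.68) and the injury-list peak 1443 bp (75390820 to 75392262, score 97.45), a ratio of 0.174. These 3 injury-list peaks lay wholly inside the control-list peak, and the nearest other injury-list peak was 4.96, 6.42 and 4.44 kb from the control-list peak, in the same order.

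The next 7 pairs had ratios of 0.182 on chromosome 4, 0.190 on chromosome 9, 0.208 on a second pair of chromosome 11, 0.219 on chromosome 14, 0.223 on chromosome 6, 0.233 on chromosome 5 and 0.234 on a second pair of chromosome 10. The chromosome 6 pair stood alone, with the nearest other injury-list peak at 23.0 kb and the nearest other control-list peak at 51.5 kb. Its control-list peak of 5513 bp (39065569 to 39071081, score 344.31) held an injury-list peak of 1227 bp (39068405 to 39069631, score 79.94) with 2836 bp uncovered before it and 1450 bp after it. The second chromosome 10 pair was the only one of the 10 whose injury-list peak reached past the control-list peak, by 84 bp at the higher end. Its control-list peak of 6890 bp (82634314 to 82641203, score 218.33) was left uncovered over its first 5362 bp.

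**Figure D2:**
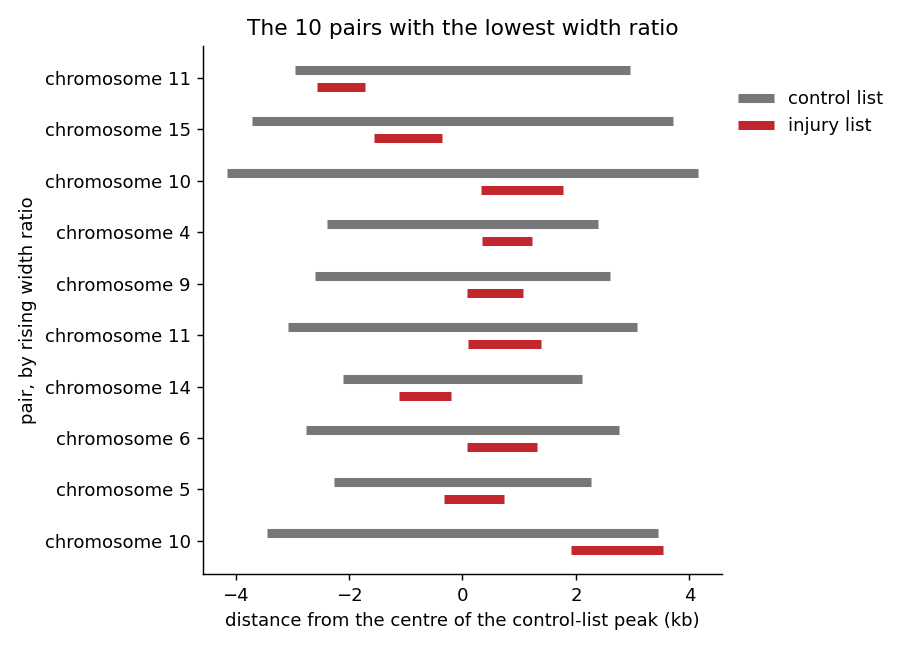
Extent of the control-list (grey) and injury-list (red) peak of the 10 pairs with the lowest width ratio, in kb from the centre of the control-list peak, from the lowest ratio at the top. In 9 of the 10 the injury-list peak lies wholly inside the control-list peak, and in the lowest row it reaches past its end by 84 bp.

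Large differences in bases also occurred at broad peaks that kept a long injury-list peak. On chromosome 8 a control-list peak of 12679 bp (74202219 to 74214897, score 91.82), the widest among the members, was matched by an injury-list peak of 7436 bp (74202296 to 74209731, score 527.16), a ratio of 0.586. The 2 peaks began within 77 bp of each other, and 5166 bp at the higher end were uncovered. A chromosome 7 pair differed by the same 5243 bp: its control-list peak measured 10487 bp (53046324 to 53056810, score 1073.95) and its injury-list peak 5244 bp (53046954 to 53052197, score 631.1). A control-list peak on chromosome 14 (56379109 to 56388818, 9710 bp, score 98.72) had an injury-list peak of 4064 bp (56385633 to 56389696, score 249.4) at its higher end, where it reached 878 bp beyond. In each of these 3 pairs most uncovered bases were at 1 edge.

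By genome coordinate, the place of the injury-list peak within the control-list peak showed no preferred side. Edges were not oriented by gene strand, so a preference relative to genes would not show here. The injury-list peak lay wholly inside the control-list peak in 2337 of the 3347 pairs (69.8%, 68.2 to 71.4%) and in 26.8% of stable pairs. In the mirror case, the control-list peak lay wholly inside the injury-list peak in 54.9% of widened pairs (53.2 to 56.7%). Choosing pairs by a narrower peak favours such nesting by geometry. In the other 1010 narrowed pairs the injury-list peak passed the control-list peak at 1 edge, by a median of 163 bp. It did so by 500 bp or more in 184 of them. More than 90% of the uncovered control-list bases were at the lower-coordinate edge in 853 pairs (25.5%, 24.0 to 27.0%) and at the higher-coordinate edge in 821 (24.5%, 23.1 to 26.0%). In the other 1673 pairs (50.0%, 48.3 to 51.7%) neither edge held more than 90% of them. The median lower-edge share of the uncovered bases was 50.6%, so the lower and higher edges took part alike. The centre of the injury-list peak lay at a median of 450.5 bp from that of the control-list peak, toward the higher coordinate in 50.4% of pairs (48.7 to 52.1%).

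Pairs with more than 90% of the uncovered bases at 1 edge differed in size from the others. These 1674 pairs, of which 664 had an injury-list peak wholly inside, had wider control-list peaks, with a median of 3096 bp against 2689 bp, and a larger difference in width, with a median of 1192.5 bp against 941 bp. Their median ratios were 0.618 and 0.654. An injury-only peak, meaning an injury-list peak that overlaps no control-list peak, lay within 5 kb of the control-list peak in 48.4% of them (46.0 to 50.8%) and in 41.5% (39.2 to 43.9%) of the other 1673. Median scores lay close together, at 83.5 and 87.0 for control-list peaks and 88.1 and 84.1 for injury-list peaks.

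The middle of the control-list peak was the part most often kept. The injury-list peak covered the control-list centre in 2728 narrowed pairs (81.5%, 80.1 to 82.8%), compared with 98.5% of stable and 98.3% of widened pairs. At 2.5% of the control-list width from the lower edge, 20.7% of narrowed pairs were covered, and at the mirrored place near the higher edge 21.4%. A narrower interval inside a wider one covers its centre more often than its ends by geometry alone. In the remaining 619 narrowed pairs (18.5%) the injury-list peak covered only a flank.

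**Figure D3:**
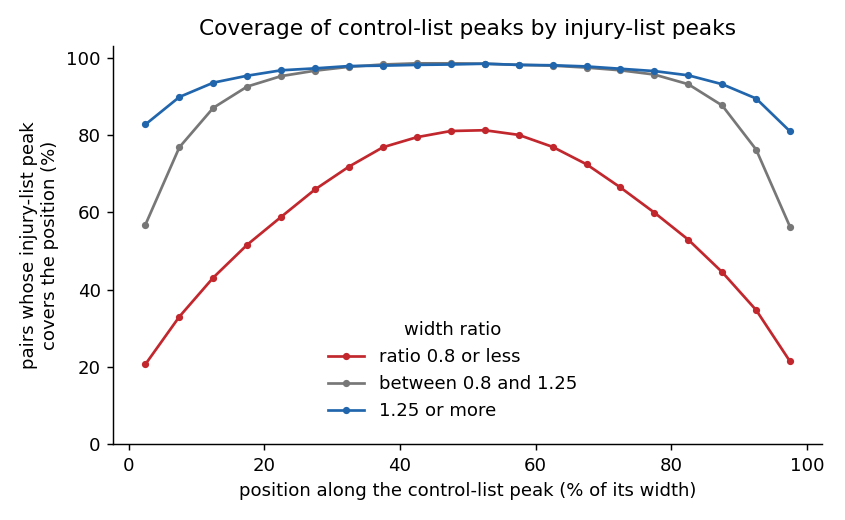
Percent of pairs whose injury-list peak covers each place along the control-list peak (horizontal axis, from the lower to the higher coordinate, in percent of the control-list width), for narrowed, stable and widened pairs. The narrowed pairs rise evenly from 20.7% near the lower edge to 81.2% just past the centre and fall to 21.4% near the higher edge.

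Narrowed pairs had lower injury-list scores than the other 1-to-1 pairs, with a median near that of the whole injury list. Their control-list scores were near those of stable pairs. The score is the authors' own value from the peak caller, grows with the strength of the evidence for a peak and is read within 1 list only. The median control-list score was 84.84 (quartiles 65.01 and 122.8) for narrowed pairs, 82.19 for stable and 75.04 for widened pairs. The median injury-list score was 85.68 (63.93 and 129.7) for narrowed pairs, 148.2 for stable and 214.9 for widened pairs. Of the narrowed pairs, 51.1% (49.4 to 52.8%) had an injury-list score at or under the median of that whole list, 87.3, as did 18.2% of stable and 6.01% of widened pairs. At the upper end narrowed pairs were fewer than in the list as a whole. Its top 10% held 5.86% of narrowed (5.08 to 6.71%), 24.4% of stable and 43.8% of widened pairs. In the control list 43.9% of narrowed pairs (42.2 to 45.6%) were at or under the list median of 79.6. With the injury list cut by score to the length of the control list, the narrowed pairs had a higher median control-list score, 115.7, than stable (92.6) and widened pairs (76.1).

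Score and width went together in each list, with a Spearman correlation over all 12963 pairs of 0.73 for injury-list peaks and 0.47 for control-list peaks. Since both values of a pair come from the same reads, this is a description only. Among pairs whose injury-list peak was at most 1692 bp wide, the narrowed ones had a median injury-list score of 70.5 and the stable ones 88.3. From 1693 to 2266 bp these medians were 93.9 and 110.5, from 2267 to 2971 bp 130.6 and 141.9, and from 2972 to 4127 bp they were 200.6 and 198.1. In the widest quintile, from 4128 bp up, they were 331.3 and 343.1. Few narrowed pairs lay in the 2 widest quintiles, 216 beside 1392 stable ones and then 64 beside 996. In the widest the quartiles were 252.5 and 432.8 for narrowed and 242.8 and 477.9 for stable pairs. Within width quintiles, which still span a range of widths, narrowed pairs were thus lower than stable ones in the 3 narrowest, by the largest proportion in the first, and close to them in the 2 widest. Within quintiles of control-list width, control-list scores differed little below the widest one. From 2399 to 2909 bp their medians were 76.6 for narrowed, 77.3 for stable and 74.4 for widened pairs. In the widest, from 3738 bp up, the narrowed pairs had a median of 126.2 and the stable pairs 144.8.

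**Figure D4:**
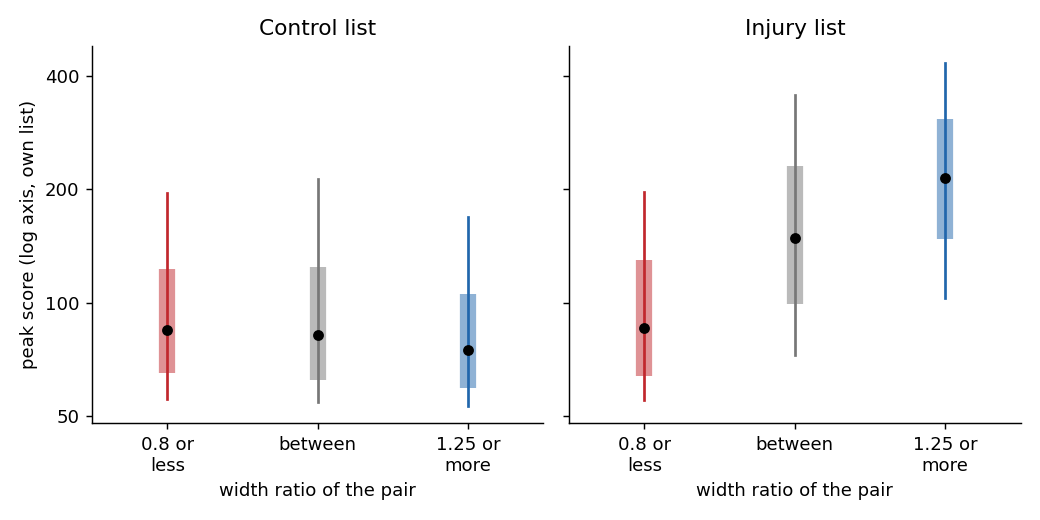
Peak scores of narrowed (left), stable (middle) and widened (right) pairs in the control list (first panel) and the injury list (second panel), on a log axis. Dots are medians, thick bars quartiles and thin lines the 10th to 90th percentile over pairs. The control-list medians run from 75.04 to 84.84, and the injury-list medians rise from 85.68 in narrowed to 214.9 in widened pairs.

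Some members were among the strongest peaks of their list. The highest control-list score of a narrowed pair, 3003.9, belonged to a peak of 4614 bp on chromosome 6 (48386598 to 48391211), whose injury-list peak of 3277 bp scored 598.17. A chromosome 2 pair was among the first 5 members in both lists. Its control-list peak of 7377 bp (37644172 to 37651548) scored 2782.83 and its injury-list peak of 4939 bp (37645330 to 37650268) scored 849.2, with 1158 bp uncovered before and 1280 bp after. Another chromosome 2 pair had a high control-list score beside an unremarkable injury-list score. Its control-list peak of 3339 bp (174152106 to 174155444) scored 2252.49, and its injury-list peak of 1561 bp (174153531 to 174155091) scored 128.97.

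On chromosome 7 a control-list peak of 5779 bp (4941786 to 4947564, score 2166.22) was matched by an injury-list peak of 3626 bp (score 799.32), and a control-list peak of 1859 bp (91030022 to 91031880, score 2067.27) by one of 1429 bp (score 646.46). The second of these had no other control-list peak within 1010.6 kb, but another injury-list peak at 14.3 kb. The highest injury-list score among members, 898.1, was on chromosome 10, where a control-list peak of 5474 bp (79327246 to 79332719, score 709.99) was matched by an injury-list peak of 3413 bp (79327380 to 79330792). A chromosome 5 pair, at 7709 bp (109978733 to 109986441, score 727.31) and 5830 bp (score 878.54), had no other peak of either list within 544.2 kb. The chromosome 10 pair, in contrast, had another peak of each list within 1 kb of the pair.

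Both scores lay in the top 10% of their own list (from 201.0 for control-list and 233.9 for injury-list peaks) in 95 narrowed pairs, or 2.84%. The same held for 7.78% of stable and 5.92% of widened pairs. The median ratio of these 95 was 0.714, nearer to the limit than the 0.637 of all members. The lowest among them was 0.287, on chromosome 5, where a control-list peak of 6124 bp (123474305 to 123480428, score 343.38) held an injury-list peak of 1760 bp (123478418 to 123480177, score 247.93) near its higher end. Next came another chromosome 5 pair at 0.341, of 4454 bp (113306557 to 113311010, score 325.56) and 1517 bp (113307875 to 113309391, score 246.4), with 1318 bp uncovered before and 1619 bp after.

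The share of narrowed pairs rose with the width of the control-list peak. It was 16.2% (14.8 to 17.6%) among the narrowest quintile of control-list peaks, from 532 to 1924 bp, and 32.5% (30.7 to 34.4%) among the widest quintile. Choosing by a ratio of widths favours wide control-list peaks, and widened pairs showed the opposite order, from 31.7% to 16.9%. By control-list score the narrowed share went from 21.5% (19.9 to 23.1%) in the lowest quintile to 29.5% (27.8 to 31.3%) in the fourth and 26.9% (25.2 to 28.7%) in the highest. By injury-list score it fell from 57.9% in the lowest quintile to 5.90% in the highest. The rule uses injury-list width, which went together with this score, so the choice of members favours such a fall. By injury-list width itself the narrowed share fell from 66.7% in the lowest quintile to 2.47% in the highest.

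At a limit of 5 kb, fewer narrowed than other pairs had a neighbour in the injury list. Another injury-list peak lay within 5 kb of the injury-list peak in 64.4% of narrowed pairs (62.8 to 66.0%), 73.8% of stable (72.7 to 74.9%) and 82.0% of widened pairs (80.6 to 83.3%). A narrower peak leaves more room to its neighbours, so the distance was also taken from the control-list peak. An injury-only peak lay within 5 kb of it in 45.0% of narrowed (43.3 to 46.7%), 51.5% of stable (50.2 to 52.7%) and 57.2% of widened pairs (55.4 to 58.9%). Within 1 kb this order did not hold, with 17.1% of narrowed (15.8 to 18.4%), 20.9% of stable (19.9 to 21.9%) and 16.4% of widened pairs (15.1 to 17.7%). An injury-list peak that reaches past the control-list edge takes up part of this distance, so the classes are not fully comparable at 1 kb. The 5 kb order was the reverse for control-only peaks, which lay within 5 kb in 9.53% of narrowed (8.56 to 10.6%), 7.33% of stable and 4.78% of widened pairs. By the rule, an injury-list peak that passes the control-list edge touches no other control-list peak. Part of the distance is thus cleared of such peaks, more so in widened pairs, and the choice of pairs favours this order. For control-list peaks of any kind the classes lay closer together, with another one within 5 kb in 44.9% of narrowed, 46.5% of stable and 42.5% of widened pairs.

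Sorting pairs by whether any peak lay within 5 kb expresses much the same neighbours in another way, and is not a separate observation. Among the 2890 pairs with no other peak of either list within 5 kb, 932 were narrowed (32.2%, 30.5 to 34.0%), and among the other 10073 pairs 2415 were (24.0%, 23.1 to 24.8%). The isolated pairs had the higher share on 19 of 19 autosomes. They also had it in each quintile of control-list width, with 20.7% against 14.0% in the narrowest and 47.4% against 30.4% in the widest quintile. The 5 kb here was counted from the outer edges of both peaks of a pair. An injury-list peak that reaches past the control-list edge therefore comes nearer to its neighbours. By geometry this favours narrowed pairs among the isolated ones, and the splits by autosome and control-list width do not remove it. Where only the injury list had another peak within 5 kb, 22.5% (21.3 to 23.9%) of pairs were narrowed, and where only the control list had one, 131 of 388 (33.8%, 29.1 to 38.7%). Over 100 kb on either side, the narrowed share fell from 30.7% (28.9 to 32.5%) with 1 to 9 injury-list peaks to 22.0% (20.3 to 23.7%) with 27 to 46. Isolated and crowded pairs can differ in local read depth, whose part in these shares was not tested.

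Among the members, injury-only peaks were no more frequent beyond the edge with the larger uncovered stretch than beyond the other edge. Within 1000 bp beyond the edge with the larger uncovered stretch, 271 narrowed pairs (8.10%, 7.19 to 9.07%) had an injury-only peak, and beyond the edge with the smaller stretch 337 (10.1%, 9.07 to 11.1%). Within 5000 bp these shares were 25.7% (24.2 to 27.2%) and 27.8% (26.3 to 29.4%). A control-list peak touched by 2 or more injury-list peaks is not among the members by the rule. These values therefore do not cover peaks that were broken into pieces, or a second injury-list peak that lay across an edge. Where the injury-list peak passed an edge of the control-list peak, it also took up room beyond that edge.

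Narrowed pairs lay side by side more often at short range. Where the next 1-to-1 pair began within 5 kb, it was narrowed after 219 of 612 narrowed pairs (35.8%, 32.0 to 39.7%), after 25.6% of stable pairs (23.3 to 28.1%) and after 21.1% of widened pairs (17.8 to 24.7%). At 5 to 20 kb the shares were 28.3% (25.1 to 31.6%), 23.7% and 18.9%, and at 50 to 200 kb they were 28.1%, 26.5% and 28.3%, with overlapping intervals. Within 5 kb the share after a narrowed pair was above that after the other pairs on 18 of 19 autosomes, for which no intervals were computed. It was also above in each quintile of the next pair's control-list width. By quintile the values ran from 25.0% against 17.6% in the narrowest to 45.1% against 27.9% in the widest, with the smallest gap, 23.6% against 21.9%, in the second. The intervals overlapped in the narrowest (16.9 to 34.7% of 100 against 13.3 to 22.5%) and in the second (15.9 to 32.8% of 106 against 17.6 to 26.6%). In 118 of the 219 neighbouring couples (53.9%, 47.0 to 60.6%) more bases were uncovered on the edges that faced each other than on the outer ones. The excess depended on the peaks kept. With only peaks from the 75th percentile of the control-list score up (120.3), the next pair within 5 kb was narrowed after 24.7% of 77 narrowed pairs (15.6 to 35.8%) and after 24.8% of all pairs, and with peaks from the control median up after 30.4% of 230 (24.6 to 36.8%) and 23.4%. With the injury list cut by score to the control list's length, the values were 24.6% of 342 (20.1 to 29.5%) and 20.7% of all, and after merging 31.9% of 407 (27.4 to 36.7%) and 25.9%. The median gap of the 219 couples was 1641 bp between control-list peaks and 3247 bp between injury-list peaks. Choosing narrower injury-list peaks by itself widens the gap between them.

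**Figure D5:**
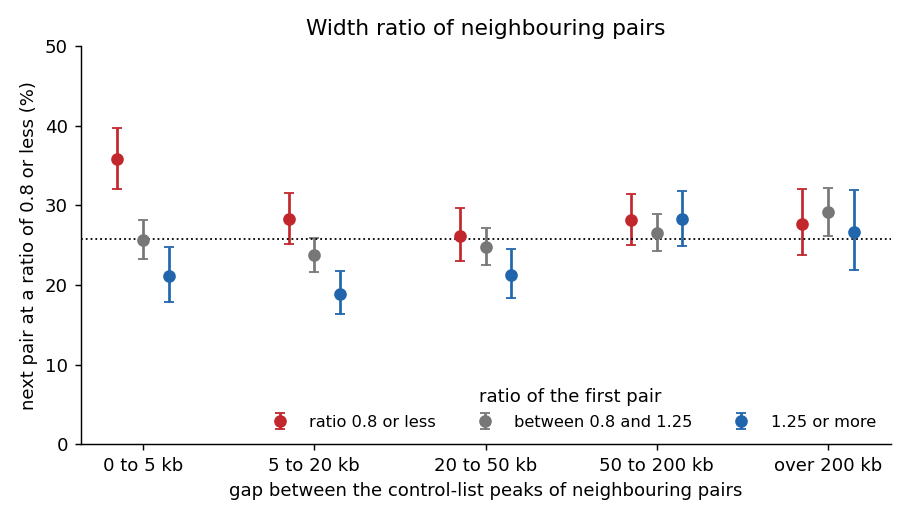
Percent of next pairs along the chromosome that are narrowed (vertical axis), by the gap to the next pair (horizontal axis) and the ratio of the first pair (colours), with exact binomial 95% intervals. The dotted line marks the 25.8% of all pairs, and the values after narrowed pairs exceed those after stable pairs most within 5 kb, at 35.8% and 25.6%.

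About as many members stood singly as in runs. Of the runs of consecutive narrowed pairs, 1675 held a single pair, 497 held 2, 148 held 3 and 54 held 4 or more. Runs were counted along the 1-to-1 pairs only, so peaks not paired 1 to 1 can lie between their members. At any distance the next pair was narrowed after 29.1% of narrowed pairs (27.6 to 30.7%) and after 25.8% of all pairs. The longest runs had 7 pairs. The tighter of these 2 was on chromosome 7 from 25785465 to 25893741, where control-list widths of 1459 to 4813 bp met injury-list widths of 989 to 3538 bp at ratios of 0.411 to 0.774. The third pair had the highest scores of the run, 881.59 in control and 635.03 in injury. The second run lay on chromosome 6 from 51391984 to 51564900, with ratios of 0.390 to 0.727 and 8384 bp fewer in all. The third run, of 6 pairs, was on chromosome 7 from 52478745 to 52583698, with ratios of 0.371 to 0.754. Scores in the chromosome 7 runs ranged from near the reporting limit of 50 to the highest 10% of a list.

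By chromosome the narrowed share ran from 19.8% on chromosome 19 (77 of 388 pairs, 16.0 to 24.2%) to 29.0% on chromosome 11 (316 of 1091, 26.3 to 31.8%). Chromosome 19 lay below the 25.8% of all pairs and chromosome 11 above it by more than counting error, as did chromosome 8 below it (187 of 845, 22.1%, 19.4 to 25.1%). They were picked out of all the autosomes, and their intervals do not allow for that choice. With only peaks from the control median score up, chromosome 11 was in place 5 (158 of 574, 27.5%, 23.9 to 31.4%), the highest share was on chromosome 16 (60 of 197, 30.5%, 24.1 to 37.4%), the intervals of chromosomes 8, 11 and 16 took in the value of all pairs, and chromosome 19 was still lowest (40 of 204, 19.6%, 14.4 to 25.7%). With all peaks the intervals of the other 16 autosomes took in that value. Median ratios among the members were alike, from 0.617 on chromosome 10 to 0.658 on chromosome 13. Along the chromosomes, from the first to the last peak, the narrowed share was between 24.9% and 27.3% in each 20% of the length.

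Narrowed pairs were found in 1047 of the 1424 windows of 1 Mb that held a pair (73.5%). The most in 1 window were 20 of 45 pairs (44.4%, 29.6 to 60.0%) on chromosome 7 from 25 to 26 Mb, which holds the tighter run of 7. Next were 19 of 47 (40.4%, 26.4 to 55.7%) on chromosome 5 from 115 to 116 Mb and 18 of 43 (41.9%, 27.0 to 57.9%) on chromosome 11 from 115 to 116 Mb. Among windows with at least 10 pairs the highest shares were 8 of 12 (66.7%, 34.9 to 90.1%) on chromosome 17 from 88 to 89 Mb and 8 of 13 (61.5%, 31.6 to 86.1%) on chromosome 6 from 39 to 40 Mb and on chromosome 7 from 38 to 39 Mb. The chromosome 6 window holds the isolated pair with a ratio of 0.223. These windows were picked as the highest of 482, and their intervals do not allow for that choice.

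The limit of 0.8 cuts through a continuous range. Just inside it were pairs on chromosome 7 (119898818 to 119900722) with widths of 1905 and 1524 bp, a ratio of 0.8, on chromosome 14 (121866172 to 121868490) with 2319 and 1855 bp, and on chromosome 1 (138348578 to 138350536) with 1959 and 1567 bp, both at 0.7999. Just outside were pairs at 0.8001 on chromosome 13 (49305071 to 49308701) with widths of 3631 and 2905 bp, on chromosome 4 (131374036 to 131378542) with 4507 and 3606 bp, and on chromosome 10 (60201521 to 60204247) with 2727 and 2182 bp.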

How the data were processed

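hMe-Seal capture of brain DNA from 3 injured and 3 control mice is described in the labels' protocols. CASAVA 1.4, Bowtie 0.12.9, MACS 1.4.2 and build mm9 are named in the submitters' processing notes. Settings, input controls, read numbers and the pooling of mice were not found in these sources. The deposited files hold, for each group, peak positions and a peak score from the authors' caller, taken to be the usual one of this MACS version. Deeper reads give more, wider and higher-scoring peaks. Lists were matched to groups by the name they share with the samples. Positions count from 1, and scores are read within their own list.

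Pairs, shares and exact binomial (Clopper-Pearson) intervals were computed with Python 3.11.15, numpy 2.4.6, pandas 2.3.3 and scipy 1.17.1, and plots with matplotlib 3.10.9. On simulated peaks 100% of 1000 known pairs were recovered with their ratio, and on chromosome 19 there were 0 mismatches with a direct comparison of all peaks. The reference tables are of another build (GRCm38), so no gene, sequence or planned gene list was used. Regions named are the extremes by ratio, difference in bases, score, window and run, and the nearest pairs to the limit. The members, lists of values and alternatives were chosen with earlier results of these data known.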

Additional observations from a re-analysis of the deposited data

How the results depend on the processing

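Of 53 values recomputed under alternatives, 23 stayed within the 95% interval of the value reported, and 30 moved. The narrowed share was 17.0% at a ratio limit of 0.7 (2201 pairs), 38.0% at 0.9 (4923), 18.8% with an injury list cut to the control list's length by score, called the reduced list (1799), 22.7% with peaks within 1 kb merged (2776) and 32.2% among pairs with no other peak within 5 kb (932), the last an alternative chosen after seeing the data. With only peaks at or above the control median score (79.6) it was 25.8% of fewer pairs (1697 narrowed), and at the 75th percentile (120.3) 25.2% (819). The share wholly inside was 67.7% at a limit of 0.9 and 66.5% with the reduced list. The median control-list score was 87.3 at a limit of 0.7, 124.8 and 194.0 at the score thresholds and 115.7 with the reduced list (stable 92.6, widened 76.1). The median injury-list score was 81.1 at 0.7, 95.2 at 0.9, 135.5 and 203.1 at the score thresholds and 154.2 with the reduced list. Narrowed pairs kept the lowest median injury-list score of the 3 classes under both score thresholds, with the reduced list (stable 186.7) and after merging. Another injury-list peak within 5 kb was found for 52.9% and 43.2% at the score thresholds, 48.1% with the reduced list and 52.7% after merging, below stable and widened pairs each time, and within 1 kb and 20 kb for 18.5% and 90%. For injury-only peaks the 1 kb and 20 kb values were 17.1% and 80.8%; within 1 kb stable pairs had 20.9% and widened pairs 16.4%, so the 5 kb order did not hold. The share whose next pair was also narrowed was 29.1%, against 25.8% of all next pairs. It was 18.4% at a limit of 0.7, 41.7% at 0.9, 25.2% at the 75th percentile score (against 25.1% of all), 20.4% with the reduced list (against 18.8%), 24.8% after merging (against 22.7%) and, added after seeing the data, 35.8% within 5 kb. The splits of neighbours and isolated pairs by autosome and control-list width were also chosen after seeing the data. Within 5 kb the excess was not seen from the 75th percentile score up (24.7% against 24.8% of all), and with the control median score (30.4%, 24.6 to 36.8%, against 23.4%) it stayed larger than counting error, but not with the reduced list (24.6%, 20.1 to 29.5%, against 20.7%); the cause was not tested. The highest narrowed share moved from chromosome 11 (29.0%) to chromosome 16 (30.5%) with peaks from the control median score up. No paired analysis was possible because single mice have no values in these lists, so leaving out a mouse was not possible either. The planned comparison by gene position was not run. Read depth, unknown here, limits every width and score.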
